A study of Mus musculus with 20 samples.

Results

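The genes described here encode the receptors for glutamate, GABA and glycine, the transmitters of fast excitation and inhibition in the brain and spinal cord. They were chosen by symbol, as all genes named for subunits of AMPA, NMDA, kainate and delta receptors (Gria, Grin, Grik and Grid), metabotropic glutamate receptors (Grm), GABA-A and GABA-B receptors (Gabr and Gabbr) and glycine receptors (Glra and Glrb). The rule found 52 of 55487 genes: 4 AMPA, 7 NMDA, 5 kainate, 2 delta, 8 metabotropic, 19 GABA-A, 2 GABA-B and 5 glycine receptor genes. The RNA came from mice at postnatal day 1 and from their subcerebral projection neurons, which sit in the cortex and send axons to brainstem and spinal cord. Somata were taken from cortex, and growth cones, the tips of growing axons, from brainstem and spinal cord. Both were taken from wild-type (WT) mice and from mice labelled as lacking Bcl11b (KO), which gave 4 groups of 5 libraries. Bcl11b encodes a transcription factor of these neurons, and how its null allele was made is not given in the sources used here.

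Ionotropic glutamate receptors are cation channels built from several subunits, and which subunits are present sets their calcium permeability, their block by magnesium and their speed. GABA-A and glycine receptors are chloride channels built in the same modular way, while metabotropic glutamate and GABA-B receptors signal through G proteins. In immature neurons, before synapses are mature, these receptors are known to respond to ambient transmitter and to act on migration and axon growth.

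Sequences around the Q/R site of the AMPA receptor genes are shown because the largest shift in AMPA subunit makeup between compartments involved Gria2, the subunit that makes this site special. The site lies in the pore loop. In Gria2 RNA its glutamine codon is edited by an adenosine deaminase to one read as arginine, which makes channels that contain the subunit nearly impermeable to calcium. Each line gives 45 coding bases, 5′ to 3′, from the GENCODE M21 transcripts (build GRCm38), with the codon of the site in capitals.
Gria1: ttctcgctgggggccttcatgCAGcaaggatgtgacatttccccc
Gria2: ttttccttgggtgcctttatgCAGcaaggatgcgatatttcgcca
Gria3: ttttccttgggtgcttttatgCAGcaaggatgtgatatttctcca
Gria4: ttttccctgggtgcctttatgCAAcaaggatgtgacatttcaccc
The stretches lie in exon 11 of Gria1 (chr11:57243073-57243117, plus strand), exon 11 of Gria2 (chr3:80706890-80706934, minus strand), exon 11 of Gria3 (chrX:41610244-41610288, plus strand) and exon 12 of Gria4 (chr9:4464116-4464160, minus strand). The annotated codon was CAG in Gria1, Gria2 and Gria3 and CAA in Gria4, and both read as glutamine. Gria2 shared 42 of the 45 bases with Gria3, 39 with Gria4 and 36 with Gria1. Gene counts do not show whether a Gria2 transcript was edited, so the levels below are levels of Gria2 RNA of either kind.

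Levels are given as CPM, counts scaled to a common library total with TMM factors over all 20 libraries, and levels of different genes are compared only as CPM per kilobase (kb) of gene model. Values of single libraries are listed by experiment number, which was 12, 14, 22, 25 and 26 for WT somata, 14, 15, 22, 25 and 26 for KO-labelled somata and 7 to 11 for both groups of growth cones. Errors of means are SD over n = 5 libraries. Differences were tested with edgeR's quasi-likelihood test over all genes, and a gene was called at an adjusted p under 0.05. Where groups are said not to overlap, this describes the values and is no test. The share of all genes without overlap was not determined. The labels do not say that libraries of a group came from separate animals, so p-values measure the spread between these libraries, which may be technical. In bulk RNA, fewer cells of a type and less RNA per cell cannot be told apart.

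Library totals ran from 18962308 to 36059112 counts in WT somata, from 35243688 to 51205154 in KO-labelled somata, from 26382991 to 29323028 in growth cones of WT and from 21657575 to 27723067 in KO-labelled growth cones. Bcl11b itself was higher in KO-labelled somata than in WT somata. It stood at 1080 to 1230 CPM in the KO-labelled libraries and at 537 to 805 CPM in WT libraries, a log2 difference of 0.74 (exact two-sided permutation test, p = 0.00794, the smallest that 5 against 5 allow). In growth cones it averaged 102 CPM in KO-labelled libraries and 101 CPM in WT (exact p = 0.944). Counts over the whole gene model do not show whether a part of the gene is missing, so these levels do not settle the genotype. Genotypes are therefore given as labelled throughout. All 9 markers of subcerebral projection neurons were detected in every group, with a summed level of 1486 to 1980 CPM in WT somata, 1610 to 1859 in KO-labelled somata, 646 to 952 in growth cones of WT and 645 to 984 in KO-labelled growth cones. Single markers went in opposite directions between somata, with means, given without a test, of 210 CPM in WT and 45.7 CPM in KO-labelled libraries for Crym, 43.3 and 12 CPM for Pcp4, 82.2 and 272 CPM for Etv1, and 17.5 and 57 CPM for Diaph3.

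Of the 52 genes, Gabra6, Gabrp, Gabrr1 and Gabrr3 had 0 counts in all 20 libraries. In WT somata 11 genes held at most 3 counts in every library: these 4 and Gabre, Gabrq, Gabrr2, Grin3b, Glra1, Glra3 and Grm6. The number was 10 in KO-labelled somata, 5 in WT growth cones and 9 in KO-labelled growth cones. After the filter on low counts, 39 genes were tested between soma genotypes, 42 between growth cone genotypes, and 40 and 39 between compartments in WT and in KO-labelled libraries.

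Per kilobase, Gabra5 was the most abundant receptor RNA in WT somata, at 122 ± 9.58 CPM per kb. Gabra5 encodes the α5 subunit of largely extrasynaptic GABA-A receptors of forebrain neurons. It was followed by Grm3, a metabotropic glutamate receptor that lowers cAMP, at 86.7 ± 15.8, and by Glra2, the α subunit of embryonic glycine receptors, at 70.2 ± 12.1. Further down were Gria2 (35.5 ± 8.74), Gabbr1 (35.3 ± 9.43) and Gabra3 (34.7 ± 3.58), which did not differ from each other beyond their spread. Among NMDA receptor genes Grin3a had the highest mean in WT somata (9.901 ± 4.63). Among kainate receptor genes it was Grik5 (9.06 ± 2.42), which did not differ from Grik2 (7.85 ± 3.11) beyond their spread. In WT growth cones Gabra5 also led, at 69.2 ± 11.04, and the next were Gabbr1 (25.8 ± 8.03), Glrb (22.4 ± 4.26), Grik5 (20.5 ± 6.08) and Gabbr2 (19.3 ± 1.92), which did not differ from each other beyond their spread.

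**Figure D1:**
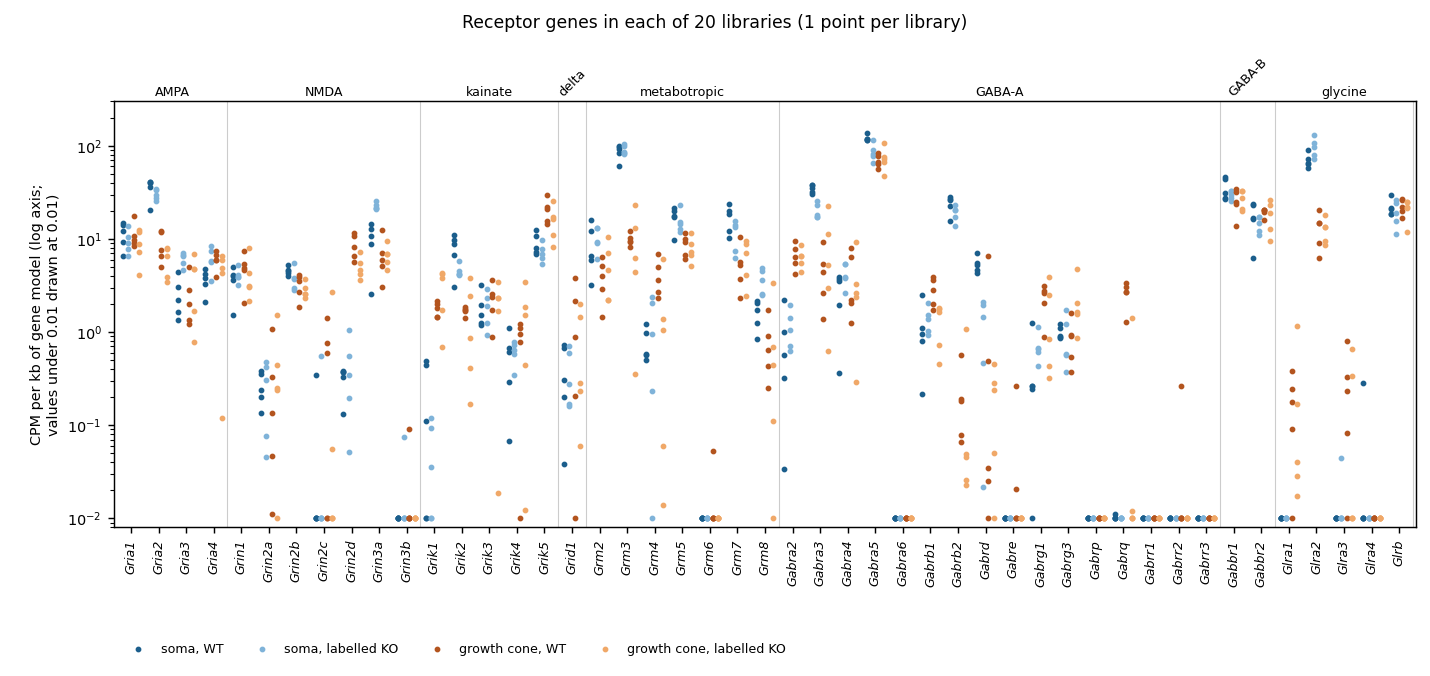
Levels of the receptor genes reported here in each library, in CPM per kb of gene model on a log axis, grouped by receptor class. Each point is 1 library, blue for somata and orange for growth cones, with the paler shade for KO-labelled libraries. Gabra5, Grm3 and Glra2 stand highest in somata, and Gabrb2 averages 23.9 CPM per kb in WT somata and 0.216 in WT growth cones.

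Summed over the class, GABA-A receptor genes stood at 284 ± 28.7 CPM per kb in WT somata, 219 ± 19.8 in KO-labelled somata, 127 ± 14.8 in WT growth cones and 131 ± 25.9 in KO-labelled growth cones. The metabotropic glutamate receptor genes stood at 133 ± 24.1, 134 ± 19.3, 34.5 ± 7.31 and 33.3 ± 13.4 in the same order, and the glycine receptor genes at 91.95 ± 10.98, 116 ± 24.9, 35.9 ± 5.79 and 34.2 ± 7.88. For AMPA receptor genes the sums were 53.1 ± 13.4, 51.9 ± 2.24, 28.2 ± 6.95 and 23.03 ± 6.83. In these 4 classes both growth cone groups had lower means than both soma groups. Kainate receptor genes were the reverse, with 19.5 ± 1.41 and 14.3 ± 1.01 in somata and 27.04 ± 7.05 and 23.6 ± 7.58 in growth cones. NMDA receptor genes summed to 18.8 ± 6.19, 31.2 ± 2.05, 24.3 ± 7.04 and 19.7 ± 3.89, GABA-B genes to 52.5 ± 14.04, 44.1 ± 3.42, 45.1 ± 8.37 and 44.95 ± 9.52, and delta genes to no more than 1.98 on average in any group. The sums are descriptions and were not tested.

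The first comparison asked which receptor RNAs differed between KO-labelled somata and WT somata. Gabra3, the α3 subunit of GABA-A receptors of immature cortex, was lower in KO-labelled somata. It was the only receptor gene called among 39 tested, a share of 2.56%. Over all 14911 genes tested the share was 0.731%, with 0.416% higher and 0.315% lower. The median log2 fold change was -0.03 over the 39 receptor genes and 0 over all genes.

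Gabra3 (ENSMUSG00000031343.13, chrX:72432681-72656848, minus strand) was at 149, 137, 151, 126 and 118 CPM in WT somata. In KO-labelled somata it was at 99.5, 66.8, 90.6, 67.6 and 71.2 CPM. The groups did not overlap, and the log2 fold change was -0.79 ± 0.14 (SE), a 1.73-fold lower level, with an edgeR adjusted p of 0.0253. The call was lost in 6 of 10 fits that left out 1 library. Without WT library 12, 14 or 22 the adjusted p was 0.0505, 0.0561 or 0.0761, and without KO-labelled library 15, 25 or 26 it was 0.0712, 0.0763 or 0.0692. Without WT library 12 and KO-labelled library 15 together, which leaves 8 libraries, it was 0.111. In a fit of all 20 libraries the log2 fold change was -0.78 with an adjusted p of 1.

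With Gabra3 included, 9 of the 39 receptor genes tested had an unadjusted edgeR p under 0.05. Over all genes it was 1278 of 14911 (8.57%), a smaller share, and the gap carries no test. The 8 receptor genes among them that did not pass are named here after their values were seen. Gria3, an AMPA subunit, was at 13.1, 30.0, 21.7, 16.1 and 43.3 CPM in WT somata. It was at 65.96, 54.05, 64.2, 45.7 and 69.3 CPM in KO-labelled somata, above every WT library, with a log2 fold change of 1.27 ± 0.29 (adjusted p = 0.0965). Leaving out 1 library moved its log2 fold change between 1.11 and 1.56, and it passed without WT library 26 (adjusted p = 0.0232). Gabra5 was at 348, 355, 412, 341 and 355 CPM in WT somata. In KO-labelled somata it was at 196, 268, 242, 230.4 and 339.8 CPM, below every WT library, with a log2 fold change of -0.51 ± 0.13 (adjusted p = 0.153, and 0.0256 without KO-labelled library 26). Grm8, a presynaptic metabotropic glutamate receptor, also showed no overlap, with 15.9 ± 5.47 CPM in WT and 35.7 ± 10.9 CPM in KO-labelled somata (log2 fold change 1.16 ± 0.29, adjusted p = 0.136). For Gabrd, the δ subunit of extrasynaptic GABA-A receptors, the levels were 15.5 ± 3.09 and 3.47 ± 2.66 CPM, again without overlap (log2 fold change -2.16 ± 0.75, adjusted p = 0.349).

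Grin3a, an NMDA receptor subunit that lowers calcium permeability and is most abundant in the young brain, turned on 1 library. It was at 31.5, 107, 178, 133 and 158 CPM in WT somata and at 267, 266, 315, 255 and 282 CPM in KO-labelled somata. The groups did not overlap, the log2 fold change was 1.19 ± 0.33 and the adjusted p was 0.196. WT library 12 lay far below the others, and without it the log2 fold change was 0.94 with an adjusted p of 0.0129. Grik2, a kainate receptor subunit, passed under the same omission: it was at 40.4, 145, 118, 88.1 and 128 CPM in WT and 60.3, 54.9, 76.3, 56.2 and 55.5 CPM in KO-labelled somata, with a log2 fold change of -0.78 ± 0.27 (adjusted p = 0.362) in all libraries and -0.98 (adjusted p = 0.0190) without library 12. The remaining 2 genes with an unadjusted p under 0.05 were Gria4 (log2 fold change 0.75 ± 0.27, adjusted p = 0.366) and Glra2 (0.47 ± 0.17, adjusted p = 0.389). Library 12 was also the lowest WT library for Gria2, Gabrb2, Grin1 and Gabbr2. Summed astrocyte markers ran from 18.97 to 193 CPM in WT somata and from 102 to 253 CPM in KO-labelled somata, and interneuron markers from 20.8 to 64.9 and from 12.5 to 57.8 CPM. The part of these levels and of the higher library totals of KO-labelled somata in the differences was not tested.

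**Figure D2:**
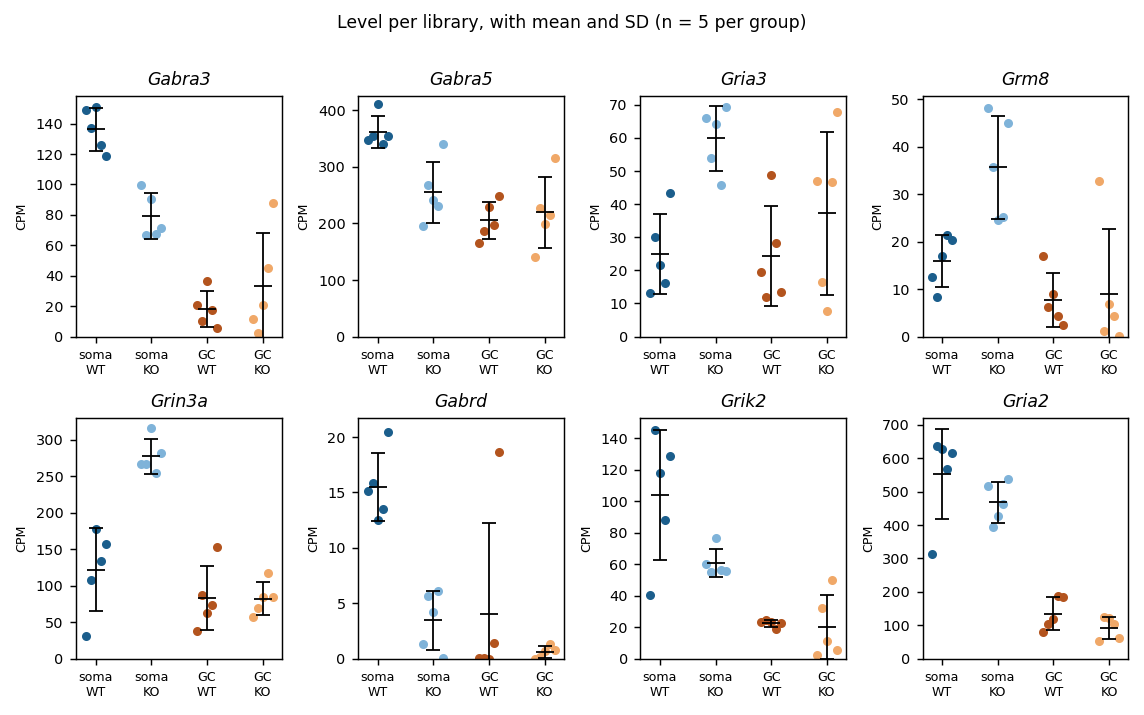
Levels in CPM of 8 receptor genes in each library of the 4 groups (GC, growth cone), with the mean and SD of 5 libraries as black bars. Gabra3, Gabra5 and Gabrd lay below every WT soma library in KO-labelled somata, Gria3, Grm8 and Grin3a lay above, and the groups overlapped for Grik2 and Gria2. How common such separation was over all genes was not determined.

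In share of the per-kb level, Grin3a made up 49.8% ± 12.3 of NMDA receptor RNA in WT somata and 72.3% ± 4.64 in KO-labelled somata. Gria3 made up 4.64% ± 1.45 of AMPA receptor RNA in WT somata and 11.7% ± 1.86 in KO-labelled somata, and Gria2 67.1% ± 3.95 and 57.9% ± 5.53. Gabra3 had 20.7% ± 1.67 of the GABA-A α RNA in WT somata and 17.5% ± 4.74 in KO-labelled somata, where Gabra5 was also lower in CPM. The share of Gabra5 itself was 72.7% ± 1.33 and 72.6% ± 6.06, which differ by less than the spread. These shares carry no test.

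Between KO-labelled growth cones and WT growth cones, no receptor gene was called among 42 tested, and 3 had an unadjusted p under 0.05. Over all 15419 genes the called share was 0%, and 329 (2.13%) had an unadjusted p under 0.05. That is a smaller share than 3 of 42, with no test of the gap. DESeq2 called 0 receptor genes. The median log2 fold change was -0.07 over the receptor genes and 0.01 over all genes.

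The 3 receptor genes with the lowest p were Grin2d, Gabrb1 and Gabrg3. Grin2d, the GluN2D subunit of NMDA receptors that open with little magnesium block, was at 43.8, 54.9, 77.6, 37.5 and 72.2 CPM in WT growth cones. It was at 24.02, 36.4, 48.01, 27.6 and 30.8 CPM in KO-labelled growth cones (log2 fold change -0.76 ± 0.30, edgeR adjusted p = 0.999). Gabrb1, a GABA-A β subunit, was at 27.5, 53.9, 23.8, 38.9 and 50.6 CPM in WT and 6.296, 25.1, 22.9, 24.2 and 10.1 CPM in KO-labelled growth cones (-1.10 ± 0.46). Their ranges overlapped between genotypes. Gabrg3, a GABA-A γ subunit, was at 10.8, 4.44, 19.3, 11.1 and 6.48 CPM in WT growth cones and 57.3, 19.8, 18.5, 10.4 and 24.6 CPM in the KO-labelled ones (1.31 ± 0.58), and its highest value came from library 7. All 3 had an adjusted p of 0.999.

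Spread between growth cone libraries was wide for several receptors. Gabra3 ran from 2.46 to 88.1 CPM in KO-labelled growth cones and from 5.36 to 36.3 CPM in WT growth cones. Grm3 ran from 1.08 to 70.3 CPM in KO-labelled growth cones, against 24.9 to 37.3 CPM in WT. Gabrq, the θ subunit of GABA-A receptors, was at 6.79, 16.5, 14.4, 14.4 and 17.96 CPM in WT growth cones and at 0, 7.55, 0, 0.06399 and 0 CPM in the KO-labelled ones. In 4 of 5 KO-labelled libraries it was thus at 0.064 CPM or less, and library 8 overlapped the WT range (log2 fold change -3.14 ± 1.76, unadjusted p = 0.1001, edgeR adjusted p = 0.999).

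The second question was which receptor RNAs differed between growth cones and somata. In WT, 17 of 40 receptor genes were called (42.5%), 6 higher and 11 lower in growth cones. Over all 15128 genes 42.8% were called, 23.1% higher and 19.7% lower. In KO-labelled libraries, 12 of 39 were called (30.8%), 4 higher and 8 lower, against 38.6% of 15410 genes, 21.6% higher and 17% lower. The share of receptor genes called was thus near the background in WT and below it in KO-labelled libraries, with no test of either gap. The median log2 fold change was -0.05 in WT and -0.14 in KO-labelled libraries, against 0.07 and 0.11 over all genes.

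Both comparisons set brainstem and spinal cord material against cortex. Growth cones also came from experiments 7 to 11 and somata from experiments numbered 12 to 26, with no number shared. Compartment, tissue of origin and experiment thus cannot be told apart. Summed markers of other cells were higher in growth cones, except those of microglia, which overlapped between compartments. The summed level of 8 interneuron markers was 20.8 to 64.9 CPM in WT somata and 525 to 652 CPM in WT growth cones, and 12.5 to 57.8 and 515 to 751 CPM in KO-labelled libraries. The 12 hindbrain and spinal cord markers were at 3 counts or fewer in every soma library and summed to 84.5 to 178 CPM in WT growth cones (KO-labelled, 75.4 to 198 CPM), with Chat at 0 counts in WT growth cones. Astrocyte markers (8 genes) summed to 657 to 895 CPM in WT growth cones and 547 to 924 CPM in the KO-labelled ones. Oligodendrocyte markers (8 genes) summed to 59.9 to 110 CPM in WT somata and 457 to 2089 CPM in WT growth cones. Vessel and blood markers (8 genes) summed to 3.10 to 23.9 and 246 to 509 CPM, and microglia markers (7 genes) to 3.42 to 92.7 and 41.8 to 72.8 CPM, in WT somata and growth cones. Their part in the receptor results below was not tested.

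AMPA receptors carry most fast excitation, and Gria2 was the only AMPA gene of 4 called between compartments, lower in growth cones of both genotypes. Gria2 (ENSMUSG00000033981.14, chr3:80681450-80802835, minus strand) was at 314, 638, 629, 568 and 615 CPM in WT somata. In WT growth cones it was at 78.5, 103, 118, 188 and 186 CPM, below every soma library, with a log2 fold change of -1.99 ± 0.27 (edgeR adjusted p = 0.000113). With the KO label, the values were 516, 394, 426, 463 and 538 CPM in somata and 54.2, 125, 121, 103 and 61.1 CPM in growth cones (-2.25 ± 0.25, adjusted p = 3.25e-05). Gria1, by contrast, had 68.7 ± 20.6 CPM in WT somata and 67.3 ± 23.2 CPM in WT growth cones (log2 fold change 0.02 ± 0.28). Gria3 had 0.02 and Gria4 0.76 ± 0.30 (adjusted p = 0.0591), and neither was called.

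The share of Gria2 in AMPA receptor RNA per kb was 67.1% ± 3.95 in WT somata (range 62.3 to 73.2%) and 30.2% ± 6.69 in WT growth cones (range 22.8 to 40.5%). That of Gria1 was 21.4% ± 2.58 and 39.3% ± 6.59, and that of Gria4 6.88% ± 0.823 and 21.5% ± 4.96. Gria2 was thus the leading AMPA RNA in somata, and Gria1 had the highest mean share per kb in growth cones. Among KO-labelled libraries, the Gria2 share was 57.9% ± 5.53 in somata and 26.9% ± 8.86 in growth cones. The gene model of Gria2 is the longest of the 4, at 15.5 kb. Its share by counts, with no division by length, was 82.6% in WT somata and 50.1% in WT growth cones. Gria1 had 25.7% by counts in WT growth cones, so the order of the pair there turned with the division by length.

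**Figure D3:**
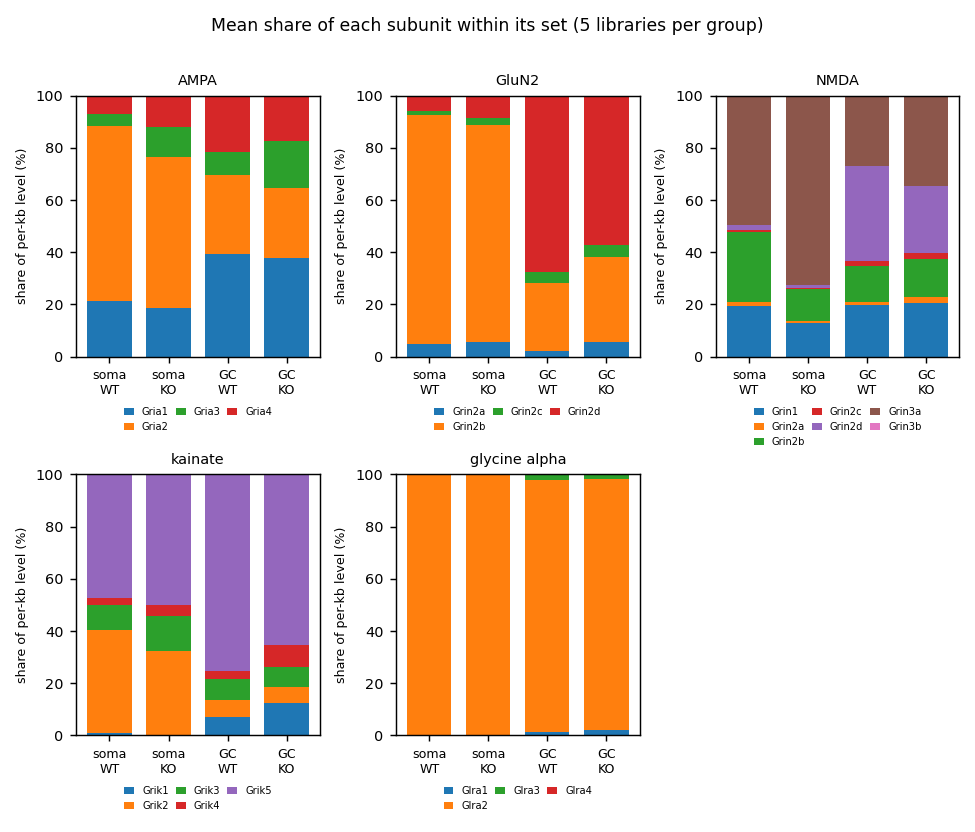
Mean share of each subunit in the per-kb level of its receptor set, in percent, for somata and growth cones (GC) of each labelled genotype, over 5 libraries. The Gria2 share is 67.1% in WT somata and 30.2% in WT growth cones, and that of Grin2b among the GluN2 genes 87.5% and 26%.

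NMDA receptors, the coincidence detectors for glutamate, pair the obligatory subunit Grin1 with GluN2 or GluN3 subunits. Grin2d (ENSMUSG00000002771.12, chr7:45831883-45878378, minus strand) was higher in growth cones of both genotypes. It was at 0.878, 2.497, 2.47, 2.54 and 2.18 CPM in WT somata and 43.8, 54.9, 77.6, 37.5 and 72.2 CPM in WT growth cones, a log2 fold change of 4.80 ± 0.41 (edgeR adjusted p = 3.28e-06). Under the KO label, it went from 6.98, 3.65, 2.31, 1.29 and 0.342 CPM to 24.02, 36.4, 48.01, 27.6 and 30.8 CPM (3.60 ± 0.70, adjusted p = 0.001699, and 4.20 without KO-labelled soma library 14). Soma and growth cone libraries did not overlap in either genotype. In KO-labelled libraries, Grin2d passed the filter on low counts only with its growth cones, since soma library 26 held 11 counts, just under the cutoff. Its call there thus carries no support of its own. Of the exonic bases of Grin2d, 9.66% are shared with an antisense gene, Gm45441, whose reads cannot be told apart because the library kits do not mark strand.

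Grin2b, the GluN2B subunit of young forebrain, had 113 ± 11.4 CPM in WT somata and 80.1 ± 22.9 CPM in WT growth cones and was not called (log2 fold change -0.45 ± 0.21, adjusted p = 0.102). Its share among the 4 GluN2 genes per kb was 87.5% ± 1.22 in WT somata and 25.99% ± 7.53 in WT growth cones, while that of Grin2d was 6.05% ± 1.85 and 67.7% ± 8.94. The gene models differ in length, and by counts alone the WT growth cone shares were 55.03% for Grin2b and 39.6% for Grin2d, so that the order of the pair turned with the division by length. In KO-labelled libraries the Grin2d share per kb was 8.64% ± 5.497 and 57.4% ± 9.26. Grin2a, the subunit that replaces GluN2B with age, stayed under 10 CPM on average in all 4 groups. Grin1 was at 35.5 ± 12.5 CPM in WT somata and 47.1 ± 18.3 CPM in WT growth cones (0.46 ± 0.37, adjusted p = 0.346). Grin1 shares 13.5% of its exonic bases with the antisense gene Grin1os.

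Grin3a was called lower in growth cones in KO-labelled libraries (-1.67 ± 0.18, adjusted p = 3.27e-05) and not in WT (-0.50 ± 0.43, adjusted p = 0.381). In growth cones it was at 37.6, 87.2, 62.8, 73.4 and 154 CPM in WT and 56.6, 69.1, 84.2, 118 and 83.8 CPM in KO-labelled libraries, nearly the same mean. The difference between the 2 compartment effects was -1.20 ± 0.51 with an interaction adjusted p of 0.6196, so it was not shown to differ between genotypes.

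Among kainate receptors, which act largely on presynaptic release and growth cone motility, Grik5 and Grik2 moved in opposite directions in WT. Grik5, an auxiliary high-affinity subunit that needs a partner, was at 64.5, 35.2, 41.5, 55.2 and 37.8 CPM in WT somata and 73.9, 109.5, 114, 153 and 80.1 CPM in WT growth cones (1.22 ± 0.25, edgeR adjusted p = 0.00209). With the KO label, it was at 35.9, 27.6, 32.5, 50.1 and 39.8 CPM and 42.2, 134, 88.6, 56.5 and 84.3 CPM (1.21 ± 0.31, adjusted p = 0.009102). The WT groups did not overlap, whereas the KO-labelled ones did. Grik2, a partner of Grik5, was at 22.99, 24.6, 23.3, 18.7 and 22.4 CPM in WT growth cones, all below the WT somata given above (-2.16 ± 0.31, adjusted p = 0.000146). In KO-labelled growth cones it was at 2.24, 32.1, 11.3, 50.01 and 5.44 CPM, below its somata, and was not called (-1.51 ± 0.67, adjusted p = 0.0955).

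Grik1, another kainate partner subunit, was low in somata and was called only in KO-labelled libraries. It had 0.236, 0, 0, 0.6201 and 0.808 CPM in somata and 4.64, 11.7, 28.9, 28.5 and 25.4 CPM in KO-labelled growth cones. It passed the filter on low counts there only through the growth cones, with 2 soma libraries at 0 counts, so its call carries no support of its own and its fitted log2 fold change ranged from 5.63 to 6.58 when 1 library was left out (the highest without KO-labelled soma library 26). In WT, Grik1 had 0, 0.743, 2.99, 0 and 3.27 CPM in somata and 14.4, 13.3, 9.85, 12.1 and 9.83 CPM in growth cones (3.14 ± 1.31, adjusted p = 0.0719), also without overlap, and its interaction had an adjusted p of 0.913. The share of Grik2 in kainate receptor RNA per kb was 39.5% ± 13.8 in WT somata and 6.65% ± 1.93 in WT growth cones, and that of Grik5 47.4% ± 16.1 and 75.3% ± 2.68. By counts, with no division by length, Grik2 led in WT somata, at 58.3% against 29.5% for Grik5. Grik3, Grik4 and the delta receptor gene Grid1, whose protein organises synapses, were not called in any comparison.

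Metabotropic glutamate receptors differed in both directions. Of 7 tested in WT, Grm3, Grm7 and Grm5 were lower in growth cones, Grm4 was higher and 3 did not pass, and in KO-labelled libraries Grm3 and Grm5 were lower. Grm3 (ENSMUSG00000003974.6, chr5:9485541-9725170, minus strand) was at 184, 300, 285, 255 and 297 CPM in WT somata and 24.9, 30.8, 28.8, 28.2 and 37.3 CPM in WT growth cones, a log2 fold change of -3.09 ± 0.18 (edgeR adjusted p = 2.66e-07). Under the KO label, it was at 306, 261, 249, 258 and 319 CPM in somata and 70.3, 19.1, 39.95, 13.3 and 1.08 CPM in growth cones (-3.19 ± 0.73, adjusted p = 0.00485, and -3.89 without KO-labelled growth cone library 7). No growth cone library reached the lowest soma library in either genotype.

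Grm5, which couples to calcium release, had a log2 fold change of -0.93 ± 0.24 in WT (adjusted p = 0.00741) and -0.90 ± 0.25 in KO-labelled libraries (adjusted p = 0.01296). Grm7, a presynaptic receptor, had -1.56 ± 0.39 in WT (adjusted p = 0.00607) and -0.74 ± 0.40 in KO-labelled libraries (adjusted p = 0.166). Grm4, also presynaptic, was at 3.42, 5.797, 3.02, 7.27 and 3.5 CPM in WT somata and 21.6, 41.5, 29.7, 13.8 and 15.9 CPM in WT growth cones (2.46 ± 0.48, adjusted p = 0.00136), without overlap. Its call was lost in a fit of all 20 libraries (adjusted p = 0.116). In KO-labelled libraries Grm4 was at 14.3, 12.3, 1.39, 5.75 and 0 CPM in somata and 0.0828, 6.33, 36.8, 8.32 and 0.359 CPM in growth cones, a wide spread in both (0.71 ± 1.5, adjusted p = 0.745). Grm6, the receptor of retinal bipolar cells, held at most 3 counts in every soma library.

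GABA-A receptor genes held both the lowest and the highest fitted log2 fold change between WT compartments. Of 13 genes tested in WT, 3 were higher in growth cones (Gabra2, Gabrb1 and Gabrq) and 5 were lower, among them Gabra3, Gabra5 and Gabrb2. In KO-labelled libraries, 12 were tested, Gabra2 was higher and 3 were lower, Gabrb2 among them.

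Gabrb2, the β subunit of the common adult receptor, had the lowest log2 fold change of the tested receptor genes in both genotypes. It was at 99.1, 181, 173, 143 and 166 CPM in WT somata and 0.499, 1.16, 1.22, 3.58 and 0.415 CPM in WT growth cones (-6.74 ± 0.59, a 107-fold lower level, edgeR adjusted p = 4.21e-06). With the KO label, it was at 87.2, 109, 147, 129 and 129 CPM in somata and 0.166, 0.145, 6.92, 0.288 and 0.315 CPM in growth cones (-6.16 ± 1.11, adjusted p = 0.00106). The highest growth cone value, 6.92 CPM in KO-labelled library 9, was still below the lowest soma library. Without that library the log2 fold change in KO-labelled libraries was -8.97, and in WT it was -7.47 without growth cone library 10. In KO-labelled libraries Gabrb2 passed the filter only through the somata, since 4 of 5 growth cone libraries held 9 counts or fewer, so the call there carries no support of its own.

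Gabrb1 was higher in WT growth cones, with 3.01, 11.1, 13.1, 15.2 and 34.5 CPM in somata against the growth cone values above (1.39 ± 0.53). Its adjusted p of 0.04999 lay at the threshold, and leaving out 1 library kept the call in 3 of 10 cases, with adjusted p-values from 0.0122 without soma library 26 to 0.105 without soma library 22. Among KO-labelled libraries, Gabrb1 had -0.03 ± 0.46 and was not called.

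Among the α subunits, which set where and how fast GABA-A receptors act, Gabra2 was at 2.45, 4.37, 0.2602, 7.57 and 16.98 CPM in WT somata and 42.3, 32.2, 59.2, 48.8 and 71.8 CPM in WT growth cones (3.07 ± 0.77, edgeR adjusted p = 0.00706, and 3.82 without WT soma library 26). Under the KO label, it was at 8.002, 14.8, 4.81, 10.8 and 5.41 CPM and 34.1, 50.03, 49.6, 41.7 and 65.1 CPM (2.54 ± 0.38, adjusted p = 0.000313). No growth cone library overlapped a soma library of its genotype. In WT, Gabra2 passed the filter on low counts only with its growth cones, since soma library 22 held 8 counts. Its WT call thus carries no support of its own. Gabra3 was at 20.99, 10.2, 36.2, 17.2 and 5.36 CPM in WT growth cones, all below the WT somata given above (-2.88 ± 0.42, adjusted p = 0.000187). In KO-labelled growth cones it was at 11.8, 2.46, 20.7, 44.8 and 88.1 CPM, and its highest library overlapped the somata (-1.16 ± 0.68, adjusted p = 0.1997). Gabra5 was at 166, 187, 229, 198 and 248 CPM in WT growth cones (-0.77 ± 0.13, adjusted p = 0.000634) and 141, 227, 199, 215 and 316 CPM in the KO-labelled ones (-0.14 ± 0.21, adjusted p = 0.6495). It held 72.7% of the α RNA per kb in WT somata and 77.05% in WT growth cones, while Gabra3 had 20.7% ± 1.67 and 5.18% ± 3.07 and Gabra2 0.512% ± 0.533 and 7.34% ± 1.45. Gabra4 was not called.

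Gabrq was at 0, 0.0595, 0.0325, 0.0299 and 0 CPM in WT somata, which is 3 counts or fewer per library, and at a mean of 14 CPM in WT growth cones. Against the level of 3 counts per library it was at least 129-fold higher in WT growth cones. It passed the filter only through the growth cones, where it is high, so its call, 1 of the 17 in WT, carries no support of its own. With the KO label, Gabrq did not pass the filter and was not tested between compartments, and all 5 somata had 0 counts. Gabrg1, Gabrg3 and Gabrd were not called between compartments in either genotype.

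**Figure D4:**
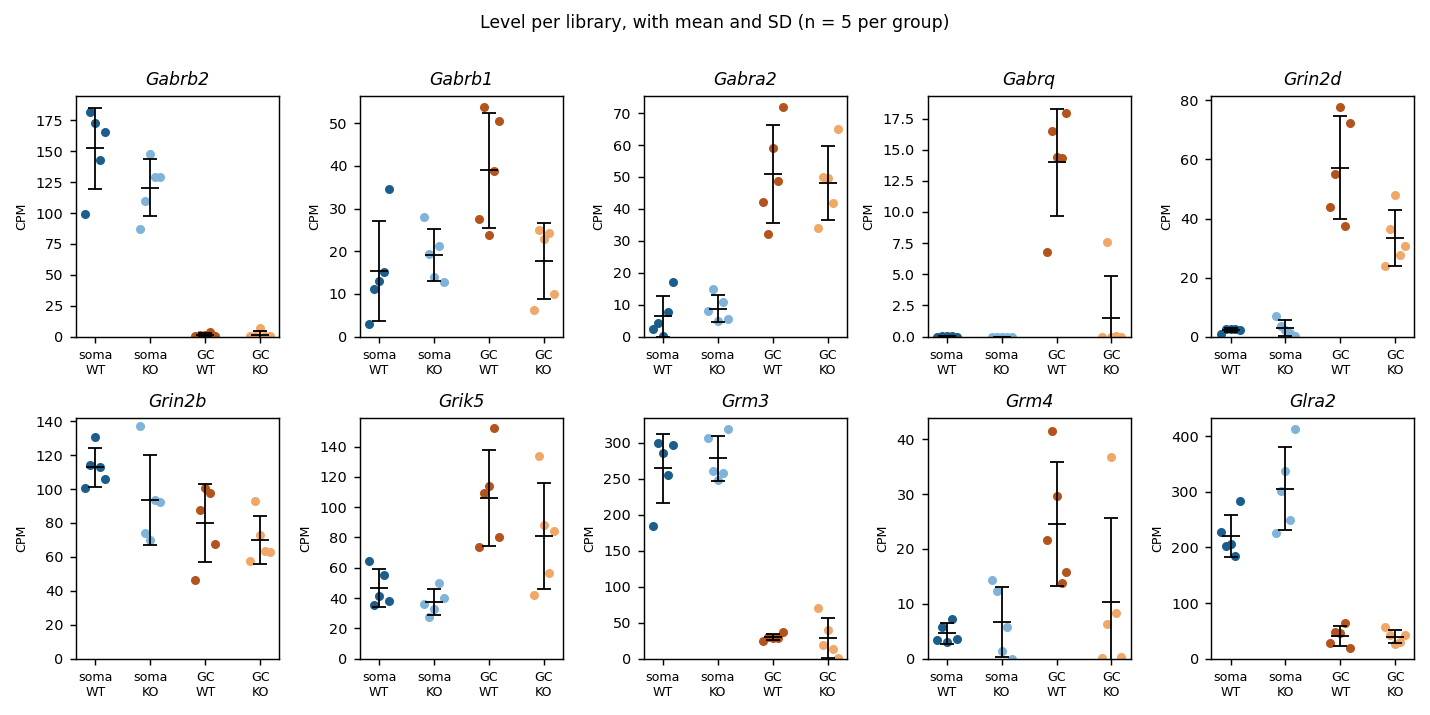
Levels in CPM of 10 receptor genes in each library of the 4 groups (GC, growth cone), with the mean and SD of 5 libraries as black bars. Gabrb2, Grm3 and Glra2 were lower in every growth cone library than in any soma library of the same label, and Gabra2 and Grin2d were higher in every one, whereas Grin2b overlapped.

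Many genes of GABA-A subunits lie in clusters. In the cluster on chromosome 5 (Gabrg1, Gabra2, Gabra4 and Gabrb1), Gabra2 and Gabrb1 were higher in WT growth cones, and Gabrg1 (2.56 ± 1.05, adjusted p = 0.0671) and Gabra4 (0.61 ± 0.66, adjusted p = 0.485) were not called. The X chromosome cluster (Gabre, Gabra3 and Gabrq) held both Gabra3, which was lower, and Gabrq, which was higher. Whether neighbours differ less than other genes was not tested.

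The GABA-B receptor genes were not called in any comparison. Gabbr1, the GABA-binding subunit, was at 209.7, 211, 362, 344 and 244 CPM in WT somata and 250.0, 264, 196, 185 and 107 CPM in WT growth cones (-0.41 ± 0.25, edgeR adjusted p = 0.21). Among KO-labelled libraries, it was at 228, 199.6, 251, 254 and 216 CPM and 214, 253, 162, 255 and 156 CPM (-0.07 ± 0.16). Gabbr2, which carries the receptor to the membrane, had log2 fold changes of 0.22 ± 0.29 and 0.41 ± 0.27. The groups overlapped for both genes.

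Of the glycine receptor genes, Glra2 (ENSMUSG00000018589.8, chrX:165129017-165327393, minus strand) was lower in growth cones of both genotypes. It was at 228, 203, 207, 184 and 284 CPM in WT somata and 28.2, 47.2, 46.3, 64.1 and 19.5 CPM in WT growth cones (-2.38 ± 0.29, edgeR adjusted p = 4.80e-05). Under the KO label, it was at 226, 302, 338, 250.3 and 413 CPM and 57.1, 42.6, 26.9, 29.7 and 42.1 CPM (-2.86 ± 0.25, adjusted p = 6.35e-06), again without overlap. Glrb, the β subunit that binds gephyrin, was not called, with 101 ± 21.3 CPM in WT somata and 104 ± 19.9 CPM in WT growth cones (0.09 ± 0.19, adjusted p = 0.732). In CPM per kb, Glra2 exceeded Glrb in WT somata (70.2 ± 12.1 against 21.7 ± 4.58) and lay below it in WT growth cones (13.04 ± 5.56 against 22.4 ± 4.26). Glra1, the adult α subunit of the brainstem and spinal cord, held at most 3 counts in every soma library, and had 0.432, 0.218, 0.922, 0.597 and 0 CPM in WT growth cones and 0.0414, 2.78, 0.0692, 0.09599 and 0.405 CPM in the KO-labelled ones. Glra3 had a mean of 2.65 CPM in WT growth cones and Glra4 had at most 3 counts in every growth cone library.

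**Figure D5:**
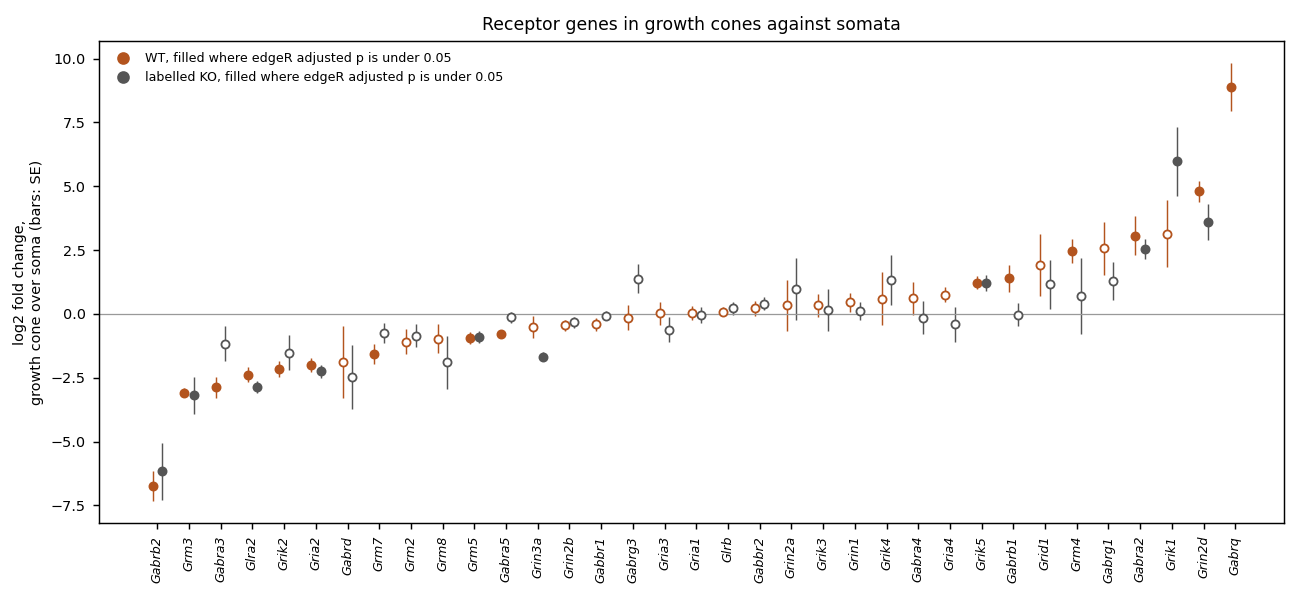
Log2 fold change of each tested receptor gene in growth cones over somata, in WT (orange) and in KO-labelled libraries (grey), with its SE, in order of the WT value. Filled points had an edgeR adjusted p under 0.05. Gabrb2 lies lowest in both genotypes, and Gabrq, tested in WT alone, lies highest. Its fitted value depends on the prior count because its somata held almost no reads.

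Calls were shared in part between the genotypes. Of the 17 genes called in WT and the 12 called in KO-labelled libraries, 10 were called in both, with the same direction in all 10. Among them were Gabra2, Gabrb2, Glra2, Gria2, Grik5, Grin2d, Grm3 and Grm5. That is 58.8% of the 17 WT calls and 83.3% of the 12 calls in KO-labelled libraries. Over all genes, 4696 were called in both, 72.5% of the WT calls and 79% of those in KO-labelled libraries, 4692 of them in the same direction. The receptor counts include calls of genes that passed the filter only with their higher group. These were Gabrq and Gabra2 in WT, and Grik1, Gabrb2 and Grin2d in KO-labelled libraries. Such calls carry no support of their own, and the counts over all genes were not screened for them. Gabra3, Gabra5, Gabrb1, Gabrq, Grik2, Grm4 and Grm7 were called in WT alone, and Grik1 and Grin3a in KO-labelled libraries alone. The difference itself was tested as an interaction of genotype and compartment over all 20 libraries. No receptor gene was called among 43 tested, and 3 had an unadjusted p under 0.05. Over all 17645 genes the shares were 0.0397% called and 6.98% with an unadjusted p under 0.05. DESeq2 called 1 receptor gene in this interaction, Gabrq, as higher, whereas its edgeR value was -0.29 ± 0.40 and not called. Its soma libraries held almost no counts, and neither value is a bound. The 3 lowest p-values belonged to Gabra5 (difference of log2 fold changes 0.60 ± 0.25, adjusted p = 0.613), Grin3a (given above) and Gabrg3 (1.5 ± 0.71, adjusted p = 0.714).

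Receptors reach the membrane with auxiliary and scaffold proteins, and a list of 49 such genes was read from the same fits. Between soma genotypes 0 of 47 tested were called, and 8 of the 47 had an unadjusted p under 0.05. That share was above the 8.57% of all genes, with no test of the gap. The lowest p-values were those of Kctd12, a GABA-B auxiliary subunit (0.76 ± 0.17, edgeR adjusted p = 0.0897), Homer2, a scaffold of metabotropic receptors (-1.68 ± 0.39, adjusted p = 0.0944), and Neto2, a kainate receptor auxiliary subunit (0.69 ± 0.16, adjusted p = 0.103). Between growth cone genotypes 0 of 48 were called and 0 had an unadjusted p under 0.05, against 2.13% of all genes. In the interaction 0 of 48 were called and 4 had an unadjusted p under 0.05, against 6.98% of all genes.

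Between compartments 12 of 48 were higher and 10 lower in WT growth cones, and 13 of 47 were higher and 10 lower in KO-labelled growth cones. Over all genes 23.1% were higher and 19.7% lower in WT, and 21.6% and 17% in KO-labelled libraries, so these counts lay near the background. Of the 12 AMPA auxiliary genes, 5 were higher and 1 was lower in WT, with a median log2 fold change of 1.92 over the 12, against 0.07 over all genes, a gap that carries no test. Cnih2, a cornichon that carries AMPA receptors to the surface and slows their closing, was at 725 ± 152 CPM in WT somata and 2952 ± 516 CPM in WT growth cones (2.07 ± 0.18, edgeR adjusted p = 4.19e-06). Cacng3, which encodes the TARP γ-3, was at 10.9 ± 3.898 and 95.4 ± 37.2 CPM (3.19 ± 0.35, adjusted p = 2.08e-05). Cnih3, a relative of Cnih2, had the opposite direction, with 146 ± 37.6 and 58.1 ± 16.4 CPM (-1.28 ± 0.24, adjusted p = 0.00108). Among the others, Nlgn2, the adhesion protein of inhibitory synapses, was higher (2.27 ± 0.31, adjusted p = 0.00011), and Neto2 (-2.15 ± 0.21, adjusted p = 8.60e-06) and the scaffold Homer1 (-1.68 ± 0.20, adjusted p = 3.93e-05) were lower. In KO-labelled libraries the lowest p-values in each direction belonged to Cnih2 (2.19 ± 0.16), Cacng3 (4.58 ± 0.37) and Nlgn2 (2.53 ± 0.32), and to Neto2 (-2.42 ± 0.18), Homer1 (-2.19 ± 0.18) and Clptm1, which limits GABA-A receptor delivery (-1.75 ± 0.30).

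Further genes can be given by their ranges. Gabre, Gabrr2, Glra4, Grin3b and Grm6 had group means under 1 CPM in all 4 groups, and were tested in none of the 5 comparisons. Tmem259 shares 32.1% of the exonic bases of Grin3b on the other strand. Grin2c averaged 0.351 CPM in WT somata and 2.78 CPM in WT growth cones and was tested only in the interaction. Grm2 averaged 19.5 to 49.5 CPM over the 4 groups and was not called. Grik3 averaged 16.3 to 20.1 CPM and Grik4 3.31 to 8.70 CPM.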

How the data were processed

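RNA-seq counts per gene were analysed for 20 libraries, 5 in each of 4 groups taken from the labels. The authors deposited 1 table of raw counts. Per the submitters' processing notes, Trimmomatic 0.39, STAR 2.7.1a and featureCounts 1.5.0 were used with build GRCm39, while the table's coordinates are those of GRCm38 and 98.1% of its 55487 exon lists equal GENCODE M21. Strand use and treatment of multimapped reads are not given in the sources used here. Per the labels' protocols, libraries were made with SMART-seq v4 and Nextera XT kits, which do not mark strand, so overlapping antisense genes cannot be told apart.

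Genes were filtered with filterByExpr (minimum count 10), scaled by TMM and tested with edgeR 4.0.16 (quasi-likelihood test, R 4.3.3) between pairs of groups, and over all 20 libraries for the interaction. P-values were adjusted by Benjamini-Hochberg over all tested genes (threshold 0.05). Fits were tested on simulated data. Replicates of a group differed by more than sampling noise (smallest chi-square per degree of freedom, 52.7). Alternatives were DESeq2 1.42.0, other scalings, no filter, 1 fit of all libraries, a replicate block and leaving out each library.

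Members and gene lists were chosen with earlier results of these data known. Named genes were every call between genotypes, the 3 lowest p-values where there was none, the 6 calls with the lowest p-values in each direction between WT compartments (with a mean of 5 CPM or more on the higher side), and the most abundant gene per kb of each class in WT somata. Up to 3 auxiliary genes per direction were named by lowest p. Other members are given to account for the classes. Some members are not reported here, but they are part of the counts, sums and shares of their classes.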

Additional observations from a re-analysis of the deposited data

Results flagged for a closer look

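Of 71 groups of 5 libraries tested for a library far from the others, 8 were flagged, and chance flags about 1 in 20 groups. The test was Dixon's, which compares the gap to the nearest library with the whole range of the group (critical value 0.71). Among somata, Gria2 stood at 314 CPM in WT library 12, against 568 CPM in the nearest library, and Grin2d at 0.878 CPM in the same library, against 2.18 CPM. Gabra5 reached 412 CPM in WT library 22 (nearest 355 CPM) and Grik2 76.3 CPM in KO-labelled library 22 (nearest 60.3 CPM).

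Among growth cones, KO-labelled library 9 was high for Gabrb2, at 6.92 CPM (nearest 0.315 CPM), and for Grm4, at 36.8 CPM (nearest 8.32 CPM). Gabrb2 was also high in WT library 10, at 3.58 CPM (nearest 1.22 CPM). Gabrq stood at 7.55 CPM in KO-labelled library 8 (nearest 0.0640 CPM). The cause of these values was not tested.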

How the results depend on the processing

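Between soma genotypes the number of receptor genes called was 1, and it was 4 with DESeq2 (Gabra3, Gabra5, Gria3 and Grm8), 0 in a fit of all 20 libraries and 0 to 2 when 1 library was left out. Over all genes this comparison gave 109 calls, 402 with DESeq2 and 30 in the fit of all libraries. Between growth cone genotypes 0 genes were called, 11 with DESeq2 and 7 in the fit of all libraries, with 0 receptor genes among them. The interaction gave 0 receptor genes and 1 with DESeq2, and 7 calls over all genes against 273 with DESeq2. Receptor genes called between compartments numbered 16 to 20 in WT and 12 to 16 in KO-labelled libraries over all alternatives. Among the fold changes recomputed for named genes none reversed, but Gabrq in the interaction, called higher by DESeq2, had an edgeR log2 value of -0.29 that was not called. Upper-quartile scaling moved the all-gene median (log2 fold change between compartments) from 0.07 to 0.28 in WT, where receptor calls became 7 higher and 11 lower, and from 0.11 to 0.31 in KO-labelled libraries.

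Same-numbered libraries correlated weakly (r from 0.006 to 0.131 in somata, from 0.02 to 0.106 in growth cones), with medians of 0.067 and 0.044. Differently numbered libraries had lower medians, -0.011 in somata (-0.093 to 0.075) and -0.01 in growth cones (-0.074 to 0.032). A shared origin of same-numbered libraries thus remains possible. The labels do not say what a number marks, and the main fits did not use it as pairing. With the number as a replicate block, 1 receptor gene was called between soma genotypes, Grin3a (adjusted p = 0.0467), Gabra3 had an adjusted p of 0.102, and 34 genes were called in all, against 80 without the block on the same 8 libraries. There, without the block, Grin3a had an adjusted p of 0.0293 and Gabra3 of 0.111, so both moves also came with leaving out WT library 12 and KO-labelled library 15. The block gave 0 receptor genes between growth cone genotypes and in the interaction. It could not be fitted between compartments, which share no numbers. The causes were not tested. At this depth, genes at 3 counts or fewer in both groups could not be compared.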
